A study of Mus musculus with 2 samples.

Results

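The interferon gamma GTPases described here are 10 genes, Gbp2, Gbp3, Gbp4, Gbp5, Gbp7 and Gbp9 of the guanylate-binding proteins (GBPs) and Igtp, Irgm1, Irgm2 and Iigp1 of the immunity-related GTPases (IRGs). They were found by symbol among 31053 features, and all 10 were present in both libraries. The data are 2 single-cell libraries of mouse colon lamina propria, made with 10x Genomics 3′ chemistry, which tag each captured RNA molecule with its own identifier (UMI). One came from wild-type (WT) mice and the other from mice lacking the long non-coding RNA lncLy6c (KO), which the labels call LncRNA17Rik. By the study's methods the KO mice were made with CRISPR-Cas9 on a C57BL/6J background, and no treatment was named for either group. The methods speak of male or female C57BL/6 mice, whereas the study's description of the single-cell data speaks of pooled young adult males, and animals could not be told apart in the libraries. The title of the WT library also holds the letters GFC, which the labels do not explain, and the study states several times more WT cells than this library has barcodes, so it is not certain that these details, or the name WT as the study uses it, apply to this library. The labels call the cells cd11b+. Feature symbols did not include either name of the deleted RNA, so the genotype was not checked on it here.

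GBPs and IRGs are large GTPases that cells make in quantity when interferon gamma binds its receptor. They assemble on vacuoles that hold intracellular bacteria or parasites, and GBPs also help to expose bacterial lipopolysaccharide to caspase-11. Irgm1, Irgm2 and Igtp are the regulatory IRGs, which keep effector IRGs such as Iigp1 off the cell's own membranes. In the gut they are known from epithelial cells as well as from macrophages.

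Coordinates are those of GRCm38 with the GENCODE M21 annotation. Gbp5, Gbp7, Gbp3 and Gbp2 follow each other on chromosome 3 between 142493978 and 142638008, all on the plus strand. Gbp9 and Gbp4 lie on the minus strand of chromosome 5, where the annotated genes overlap by 23.8 kb. Irgm1 is on the minus strand of chromosome 11 (48861968 to 48871683), Igtp and Irgm2 are on its plus strand with 7.97 kb of overlap, and Iigp1 lies apart from the others. GBPs and IRGs are families of similar sequence, and the overlapping pairs share a strand, so the split of reads between Gbp4 and Gbp9, and between Igtp and Irgm2, is uncertain.

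RefSeq promoter entries (GRCm38.p6, 250 bases before to 50 after the annotated start) matched 7 of the 10 genes, namely Gbp2, Gbp3, Gbp5, Gbp7, Irgm1, Igtp and Irgm2. The entries were searched on both strands for the gamma-activated site (GAS) TTCNNNGAA, which reads the same on either strand, and for the core of the interferon-stimulated response element (ISRE), GAAANNGAA or its reverse complement TTCNNTTTC. The ISRE core was found in an entry of all 7 genes and in 8.56% of all 32851 promoter entries, and GAS was found in 4 of the 7 and in 8.30% of all entries. No GAS match overlapped an ISRE match in the entries of these genes, although some ISRE matches overlapped each other. A match is a description of the letters and not of a bound site. Gbp2, the most abundant member, and the 3 regulatory IRGs, with their neighbours Igtp and Irgm2 side by side, are shown. Capitals mark the bases of the matches, 5′ to 3′ on the gene's strand, from chr3:142620413-142620712 (plus strand), chr11:48871371-48871670 (minus), chr11:58199306-58199605 (plus) and chr11:58214727-58215026 (plus).
Gbp2: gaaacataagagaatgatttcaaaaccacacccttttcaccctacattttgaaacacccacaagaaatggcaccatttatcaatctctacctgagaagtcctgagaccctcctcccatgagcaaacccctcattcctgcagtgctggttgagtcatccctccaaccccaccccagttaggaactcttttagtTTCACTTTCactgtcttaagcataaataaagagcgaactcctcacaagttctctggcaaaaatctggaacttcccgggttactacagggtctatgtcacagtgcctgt
Irgm1: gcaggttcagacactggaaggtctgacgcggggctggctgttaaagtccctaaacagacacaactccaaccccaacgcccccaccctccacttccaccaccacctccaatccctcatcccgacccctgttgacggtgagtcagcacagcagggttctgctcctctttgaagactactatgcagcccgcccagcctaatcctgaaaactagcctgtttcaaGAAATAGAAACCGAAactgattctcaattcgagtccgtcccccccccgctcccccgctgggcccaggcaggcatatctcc
Igtp: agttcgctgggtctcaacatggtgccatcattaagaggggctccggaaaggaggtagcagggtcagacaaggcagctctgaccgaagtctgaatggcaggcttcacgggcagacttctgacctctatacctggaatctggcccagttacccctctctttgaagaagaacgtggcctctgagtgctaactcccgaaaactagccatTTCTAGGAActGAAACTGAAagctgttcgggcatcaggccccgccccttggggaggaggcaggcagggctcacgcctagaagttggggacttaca
Irgm2: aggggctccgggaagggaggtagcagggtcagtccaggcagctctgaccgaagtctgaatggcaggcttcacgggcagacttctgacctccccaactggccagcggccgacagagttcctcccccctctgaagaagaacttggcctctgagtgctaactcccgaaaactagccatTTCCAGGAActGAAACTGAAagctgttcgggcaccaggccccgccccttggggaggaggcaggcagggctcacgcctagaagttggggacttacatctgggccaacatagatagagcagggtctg
The Gbp2 entry held 1 ISRE core, 58 bases before the annotated start, and the Irgm1 entry held 2 overlapping ones, 30 and 24 bases before it. Igtp and Irgm2 had the same arrangement, with GAS followed by the ISRE core after 2 bases, at 45 and 34 bases before the start in Igtp and at 75 and 64 in Irgm2.

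After the filter of the study, 2597 WT and 2514 KO cells remained, with 18994564 and 22331342 UMIs and medians of 5073 and 6564.5 UMIs per cell. Levels are given as CPM, the UMIs of a gene per 1000000 UMIs of the same cells, with exact Poisson 95% intervals. Because 3′ UMIs count molecules once, CPM was compared between genes without a length correction. Ratios are KO over WT on the log2 scale with exact conditional binomial intervals. Each genotype had 1 library, so there was no test between genotypes, and every interval covers counting error only. Differences between the libraries and between the genotypes cannot be told apart.

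Clusters were named from marker genes and are called "-like". Cells outside the myeloid classes (B, plasma, T, natural killer, epithelial and stromal cell-like) made up 35.7% of WT and 11.1% of KO cells, so the libraries go beyond the cd11b+ label, and an Itgam (CD11b) UMI was found in 40.0% of WT and 57.8% of KO cells. Their markers moved with the libraries inside other classes too. In T cell-like cells the summed plasma cell markers stood at 1094 CPM in WT and 138 in KO and the epithelial markers at 203 and 48.6 CPM, and both were higher in WT in every class with a ratio. The part of these RNAs in the results was not tested. In WT the 10 GTPases stood at 153 CPM in plasma cell-like, 340 in epithelial cell-like and 1002 in stromal cell-like cells.

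The GTPases were lower in the KO library. Over all cells the 10 genes together had 7291 UMIs in WT and 3227 in KO, or 384 CPM (375 to 393) against 145 (140 to 150), a log2 ratio of -1.41 (-1.47 to -1.35). The summed level was lower in KO in each of the 20 clusters, and in 18 of them the counting intervals of the libraries did not overlap. The exceptions were the natural killer cell-like cluster and a cluster of shallow cells that stayed unnamed. The median log2 ratio of all 14006 genes with at least 20 UMIs was -0.24, against -1.35 for the 10 GTPases. At least 2-fold lower (log2 ratio of -1 or less with a prior of 1 CPM) were 8 of the 10, where 13.4% of all tested genes were, and none was at least 2-fold higher, where 2.69% were.

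In WT the summed level was highest in neutrophil-like cells, where 5 of 81 cells held 41.3% of the UMIs, and lowest in B cell-like cells. Neutrophil-like cells had 1504 CPM (1342 to 1680), stromal cell-like cells 1002 (910 to 1100) and inflammatory monocyte-like cells 937 (839 to 1045). The intermediate class, clusters in which monocyte and macrophage markers were raised in nearly equal number, had 662 CPM (636 to 689), and resident macrophage-like cells had 476 (437 to 519). Neighbours in this order did not overlap, except that the stromal and monocyte-like intervals did. Of the monocyte-like UMIs, however, the 5 highest of 56 WT cells held 44.2%. The main monocyte cluster of 51 cells, which is not free of these cells, stood at 666 CPM (579 to 762), overlapping with the intermediate class. Below them came mature dendritic cell-like cells (425 CPM), T cell-like cells (407), natural killer cell-like cells (345) and epithelial cell-like cells (340), each within the interval overlap of its neighbour. The cDC2-like cells had 291 CPM (270 to 313) and did not overlap with the epithelial cell-like or eosinophil-like cells beside them in the order. Eosinophil-like (187 CPM), plasma cell-like (153), cDC1-like (144) and B cell-like cells (136) ended the order, with overlapping intervals.

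In KO the order was different. Intermediate cells led with 319 CPM (295 to 344), followed by inflammatory monocyte-like cells with 303 (283 to 324), natural killer cell-like cells with 288 (216 to 377), resident macrophage-like cells with 253 (222 to 287) and neutrophil-like cells with 237 (207 to 269). Each of these overlapped its neighbour, while neutrophil-like cells lay below the intervals of the intermediate and monocyte-like cells. Few cells carried both of these KO levels. The main monocyte cluster of 291 KO cells stood at 227 CPM (209 to 247), overlapping with neutrophil-like cells, and 5 cells held 32.8% of the GTPase UMIs of the KO intermediate class. Mature dendritic cell-like cells (229 CPM), stromal cell-like cells (198) and T cell-like cells (193) came next. Lower levels were found in cDC2-like cells with 70.1 CPM, eosinophil-like cells with 56.3, cDC1-like cells with 53.9 and B cell-like cells with 53.3, and the 17 epithelial cell-like cells were lowest with 32.9 CPM (10.7 to 76.8).

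**Figure D1:**
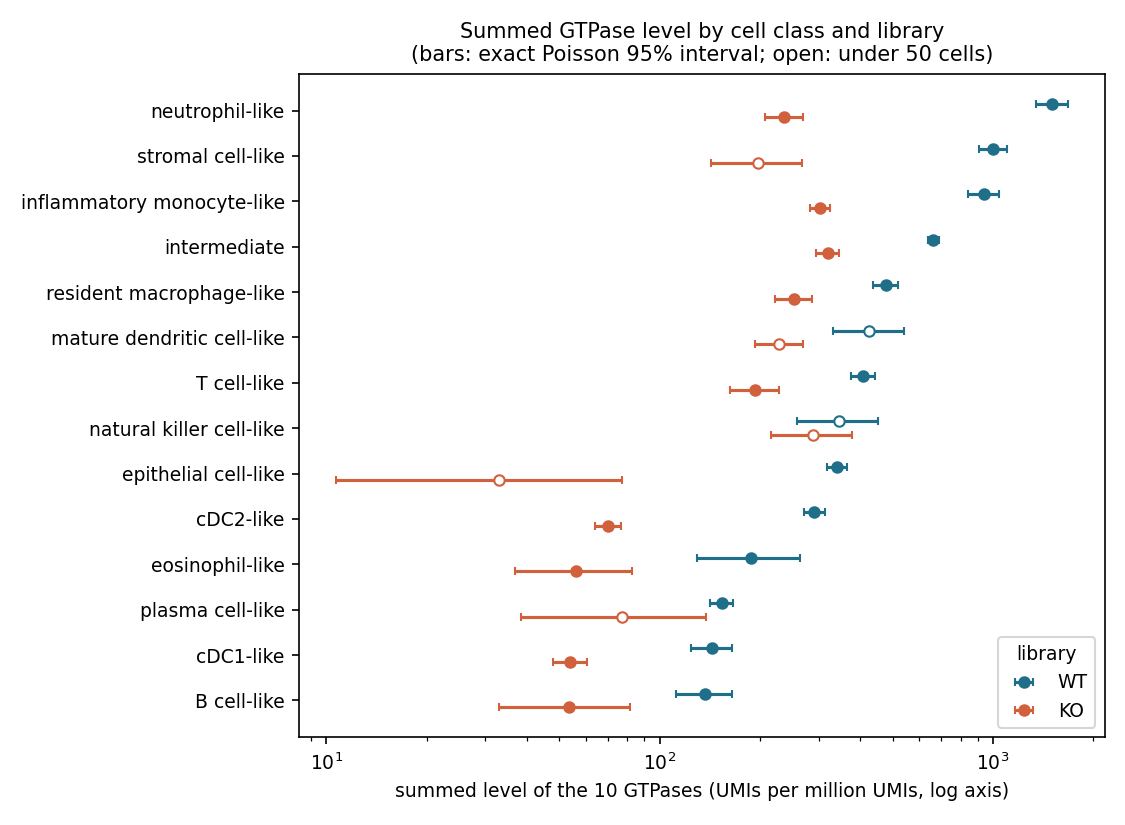
Summed CPM of the 10 GTPases (log axis) in each marker-named class, in the WT and KO libraries, with exact Poisson 95% intervals. Open points are groups under 50 cells. The KO point lies left of the WT point in every class, and neutrophil-like cells show it from 1504 to 237 CPM.

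Ratios were formed for the 9 classes that held 50 cells or more in both libraries. The summed level was lower in KO in all 9. The largest difference was that of neutrophil-like cells, with 315 UMIs in 81 WT cells and 232 UMIs in 276 KO cells and a log2 ratio of -2.67 (-2.92 to -2.42). There 5 WT cells held 41.3% of the GTPase UMIs, and the log2 ratio was -2.48 without the 5 highest cells of each library. Neutrophil markers themselves summed to 44334 CPM in WT and 71869 in KO in this class. In cDC2-like cells the log2 ratio was -2.05 (-2.22 to -1.89), but -1.33 when clusters were built on 4000 variable genes. Eosinophil-like cells followed at -1.74 (-2.54 to -0.95), on only 33 UMIs in WT and 26 in KO. Next were inflammatory monocyte-like cells at -1.63 (-1.81 to -1.44), cDC1-like cells at -1.41 (-1.68 to -1.15) and B cell-like cells at -1.36 (-2.11 to -0.67). T cell-like cells had -1.08 (-1.35 to -0.81), intermediate cells -1.06 (-1.18 to -0.93) and resident macrophage-like cells -0.91 (-1.14 to -0.69), and these 3 intervals overlapped. The bounds of the intermediate class were set after the clusters had been seen, and when only clusters with equal marker numbers were called intermediate, resident macrophage-like cells had -1.19. Medians of all tested genes in the same classes ran from -0.26 in resident macrophage-like cells to 0.02 in eosinophil-like cells.

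Some classes were made of different clusters in the libraries. Of the intermediate cells, 643 in WT lay in a cluster led by Ly6i, Mmp14 and Tgfbi and 155 in KO in one led by Retnla, Ccl24 and Lpl. Within the first, the GTPases stood at 667 CPM in WT and 340 in KO, and within the second at 571 and 315 CPM. The inflammatory monocyte-like class joined a main cluster, at 666 CPM in WT and 227 in KO, with a small cluster that had Ccl7 and Ccl2 among its leading genes. That small cluster had the highest level of any, 3308 CPM (2740 to 3959) in 5 WT cells and 1241 (1095 to 1401) in 32 KO cells. Both libraries therefore placed their highest GTPase levels in it, and without it the log2 ratio of the class was -1.55.

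The share of cells with at least 1 UMI of a GTPase depends on depth, which was greater in KO over all cells. Median UMIs in WT and KO were 6043 and 9282 in inflammatory monocyte-like cells and 2284 and 3026 in neutrophil-like cells. Depth was lower in KO in natural killer cell-like cells (5755.5 and 4373) and epithelial cell-like cells (15367 and 4967). At full depth 57.2% of WT cells (55.3 to 59.1) and 39.6% of KO cells (37.7 to 41.5) were positive. After each cell was thinned to 2000 UMIs, with 631 WT and 567 KO cells too shallow and left out, the shares were 39.6% (37.4 to 41.8) and 19.5% (17.7 to 21.3). Positive cells were therefore fewer in KO at equal depth over all cells, though not among the few natural killer cell-like cells, with 38.5% in WT (20.2 to 59.4, 26 cells) and 42.5% in KO (27.0 to 59.1, 40 cells), whose intervals overlapped and which had 84.6% and 67.5% before thinning. Among thinned neutrophil-like cells 59.6% were positive in WT (45.1 to 73.0, 52 cells) and 22.2% in KO (17.2 to 27.9, 248 cells), among resident macrophage-like cells 56.4% and 34.0%, and among cDC2-like cells 27.2% and 11.3%. The same cells before thinning gave 63.5% and 31.5%, 84.2% and 67.0%, and 60.8% and 47.4%. Thinned WT stromal cell-like cells stood at 75.0% (63.4 to 84.5, 72 cells), above the WT neutrophil-like share but with overlapping intervals. No class is known to lack these genes, so a share from free RNA alone was not available, and the lowest thinned shares were those of KO B cell-like cells, 8.33% (3.42 to 16.4), and KO cDC1-like cells, 8.42% (5.52 to 12.2).

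Among the GBPs, Gbp2 was the most abundant member. It had 1960 UMIs in WT and 850 in KO, or 103 CPM (98.7 to 108) and 38.1 CPM (35.5 to 40.7). In WT neutrophil-like cells it reached 778 CPM (663 to 907), where it made up 51.7% of the GTPase UMIs (46.1 to 57.4), and KO neutrophil-like cells had 107 CPM (87.6 to 130). Gbp2 was thus the leading GTPase of neutrophil-like cells in both libraries. It was also lower in KO in cDC1-like cells (45.2 against 9.07 CPM, log2 ratio -2.32), cDC2-like cells (93.1 against 17.7 CPM, -2.40), inflammatory monocyte-like cells (263 against 80.1 CPM, -1.71) and resident macrophage-like cells (90.2 against 23.9 CPM, -1.92, and between -2.19 and -0.86 over the alternative settings with a prior of 1 CPM). In B cell-like cells 26 UMIs were counted in WT and 0 in KO, 4.35-fold lower when KO is set to 3 counts. The upper limit of the exact interval of that log2 ratio was -1.72. T cell-like cells differed less, with 52.0 CPM (40.9 to 65.2) against 31.1 (19.7 to 46.6).

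Gbp3 and Gbp7 had the highest levels of WT resident macrophage-like cells, ahead of Gbp2, whose interval (73.4 to 110) overlapped with both. Gbp3 had 126 CPM there in WT (106 to 149) and 53.9 in KO (40.3 to 70.7), and Gbp7 had 112 (93 to 133) and 51.9 (38.5 to 68.4). The log2 ratios were -1.23 and -1.11. Over 12 alternative settings, with a prior of 1 CPM, Gbp3 lay between -1.47 and -0.95 and was at least 2-fold lower in 10, while Gbp7 lay between -1.24 and -0.56 and was at least 2-fold lower in 3. In intermediate cells both were lower by less than 2-fold, Gbp3 with 103 against 55.9 CPM and Gbp7 with 73.4 against 53.4. B cell-like cells had 17.8 CPM of Gbp3 in each library, with a wide interval of the log2 ratio (-1.56 to 1.40).

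Gbp5, whose product takes part in inflammasome responses, showed the largest difference in neutrophil-like cells among the members with 20 UMIs. It had 29 UMIs in WT and 6 in KO there, or 138 CPM (92.7 to 199) against 6.12 (2.25 to 13.3), a log2 ratio of -4.50 (-6.06 to -3.21). In resident macrophage-like cells it had 25.3 CPM (16.8 to 36.5) and 20.7 (12.7 to 32.0), which overlapped. Over all cells its log2 ratio of -0.72 (-0.97 to -0.48) was under 2-fold. The same held for Gbp9, the least abundant GBP in WT, with 13.1 CPM in WT and 9.18 in KO and a log2 ratio of -0.51 (-0.78 to -0.24).

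Gbp4 split the myeloid classes. In resident macrophage-like cells the intervals of the libraries overlapped, at 43.3 CPM (31.9 to 57.4) and 40.4 (28.8 to 55.3), whereas in cDC2-like cells it had 20.0 CPM (14.9 to 26.4) against 3.17 (2.01 to 4.76) and in T cell-like cells 65.2 (52.7 to 79.8) against 23.0 (13.4 to 36.8). With a prior of 1 CPM, the log2 ratio of Gbp4 in resident macrophage-like cells lay between -0.94 and 0.17 over 12 alternative settings. It was at least 2-fold lower in 0 of them. In cDC2-like cells the ratio lay between -2.41 and -1.7. The overlap of the Gbp4 annotation with Gbp9 applies to these values.

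Of the IRGs, Irgm1 was the most abundant, with 62.3 CPM in WT (58.8 to 66.0) and 25.1 in KO (23.1 to 27.3). It was high in WT neutrophil-like cells, at 291 CPM (223 to 374) against 45.9 in KO (33.5 to 61.4), and in inflammatory monocyte-like cells, at 194 CPM (151 to 246) against 65.5 (56.4 to 75.7). In the main setting, only 1 of the 9 classes with a ratio held a GTPase (at least 20 UMIs) not lower in KO. It was Irgm1 in resident macrophage-like cells, with 32.5 CPM (22.7 to 45.0) in WT and 36.3 (25.3 to 50.5) in KO. Its log2 ratio there, 0.16 (-0.55 to 0.87), included no difference. Over 12 alternative settings, with a prior of 1 CPM, this ratio lay between -1.45 and 0.42. Irgm1 was at least 2-fold lower in 2 of these settings, so its direction in this class depended on the setting. As a group the 4 IRGs had 65.0 against 50.8 CPM in that class and a log2 ratio of -0.35 (-0.91 to 0.19), and its 6 GBPs had 411 against 202 CPM and -1.02 (-1.27 to -0.78), with overlapping intervals.

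Igtp had 24.2 CPM in WT (22.1 to 26.5) and 7.25 in KO (6.18 to 8.46). In WT its levels in inflammatory monocyte-like cells (80.0 CPM), neutrophil-like cells (71.6) and T cell-like cells (70.0) overlapped. In a T cell-like cluster led by Icos, Rora and Tnfsf11 it stood at 135 CPM in WT and 37.7 in KO. Igtp was the highest GTPase of that cluster in WT, followed by Gbp7 at 112 CPM, with no intervals formed for single genes there. In cDC2-like cells it had 12.2 CPM in WT (8.28 to 17.3) and 1.24 in KO (0.568 to 2.36). Irgm2 was scarce, with 11.8 CPM in WT (10.3 to 13.4) and 3.22 in KO (2.52 to 4.06). Its highest WT level was in stromal cell-like cells, at 94.2 CPM (67.6 to 128), followed by neutrophil-like cells at 62.1 (33.0 to 106), and KO neutrophil-like cells had 9.18 CPM (4.20 to 17.4).

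Iigp1, an effector IRG, had the widest difference over all cells, and most of its WT UMIs lay in stromal and epithelial cell-like cells. It had 515 UMIs in WT and 33 in KO, or 27.1 CPM (24.8 to 29.6) against 1.48 (1.02 to 2.08), a log2 ratio of -4.20 (-4.75 to -3.69). Stromal cell-like cells had 347 CPM (294 to 407) and epithelial cell-like cells 94.3 CPM (82.1 to 108) in WT, and these classes together held 367 of the 515 WT UMIs. They numbered 80 and 145 cells in WT but 21 and 17 in KO, so that fewer such cells enter the all-cell value as well. In the few KO stromal cell-like cells Iigp1 stood at 18.8 CPM (5.13 to 48.2). The KO epithelial cell-like cells had 0 UMIs, with an exact Poisson upper limit of 24.3 CPM. Within resident macrophage-like cells, 20 UMIs in WT and 2 in KO gave 18.0 (11.0 to 27.9) and 2.07 CPM (0.251 to 7.49). Intermediate cells had 57 UMIs in 29 WT cells and 8 in KO, all of them in 1 cell. T cell-like cells had 27 UMIs in 14 WT cells and 9 in KO, again all in 1 cell, so that no KO level of either class can be read apart from that cell. In resident macrophage-like cells the stromal markers summed to 18.9 CPM in WT and 43.6 in KO and the epithelial markers to 135 and 30.1 CPM, and their part in the Iigp1 difference was not tested.

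The mix of GTPases in WT therefore differed between classes. Iigp1 made up 34.6% of the GTPase UMIs in stromal cell-like cells (30.2 to 39.3) and 27.7% in epithelial cell-like cells (24.6 to 31.0), where Irgm1 was at 29.5% (26.3 to 32.8). It made up 3.79% in resident macrophage-like cells. In these Gbp3 took 26.5% (22.8 to 30.5) and Gbp7 23.5% (19.9 to 27.3). T cell-like cells spread the sum over Gbp7 with 19.6%, Igtp with 17.2% and Gbp4 with 16.0%. The KO resident macrophage-like cells had a smaller share of Gbp2, with 9.43% (6.07 to 13.8) against 18.9% in WT (15.7 to 22.5), and larger shares of Irgm1, with 14.3% (10.2 to 19.4) against 6.82% (4.82 to 9.31), and Gbp4, with 16.0% (11.6 to 21.2) against 9.09% (6.78 to 11.9, overlapping). The levels of Irgm1 and Gbp4 themselves overlapped between the libraries, as given above, so these are shares of a smaller sum.

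**Figure D2:**
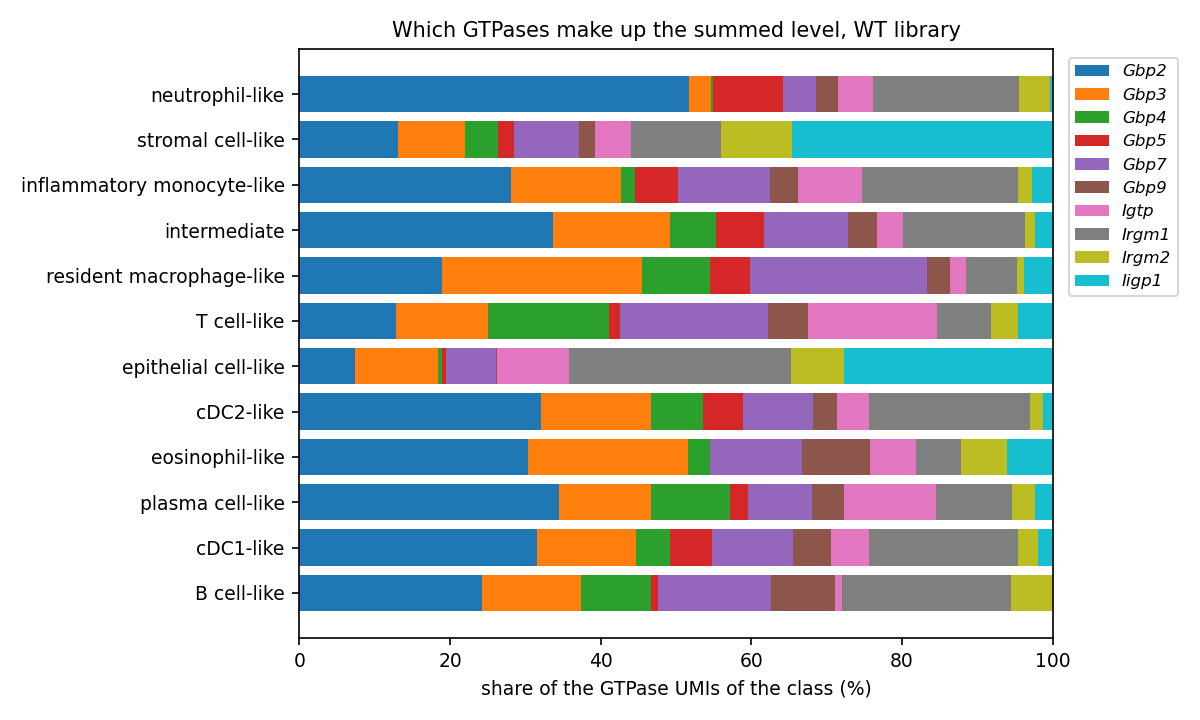
Share of each GTPase in the summed GTPase UMIs (%) of each class with at least 50 cells in the WT library, ordered by summed level. Gbp2 fills 51.7% of the neutrophil-like bar, and Iigp1 fills 34.6% and 27.7% of the stromal and epithelial cell-like bars.

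Counted over the 10 genes and 9 classes, 62 of 90 pairs had at least 20 UMIs. Of these, 41 were at least 2-fold lower in KO and 0 at least 2-fold higher. By class, 2.51% to 13.4% of all tested genes were at least 2-fold lower and 1.86% to 8.37% at least 2-fold higher. Of the 62 pairs, 61 were below 0 on the log2 scale. The count of pairs with the whole interval below 0 was 48. Over all 64758 tested pairs of a gene and a class, 61.4% were below 0 and 20.9% had the whole interval below 0. The other 28 pairs had too few UMIs, and since a gene could reach 20 UMIs through WT alone, these counts are descriptions of the measured pairs only. By class the GTPases at least 2-fold lower, among those with 20 UMIs, are set against the share of all tested genes that were. There were 7 of 7 in neutrophil-like cells (11.2% of all genes lower, 7.4% higher), 8 of 9 in cDC2-like cells (7.4% and 3.24%, and 5 without the 5 highest cells of each library), 6 of 8 in inflammatory monocyte-like cells (8.45% and 7.08%), and 7 of 10 in intermediate cells (8.18% and 3.86%). There were 4 of 9 in resident macrophage-like cells (11.1% and 3.62%) and 4 of 9 in T cell-like cells (13.4% and 4.42%), and both had 2 when each library was clustered alone or ratios were taken against the all-gene median. The counts were 3 of 7 in cDC1-like cells (2.51% and 3.48%, and 5 with 4000 variable genes) and 2 of 3 in B cell-like cells (10.3% and 1.86%, and 0 without the 5 highest cells of each library). In each of these 8 classes the share of GTPases was over that of all genes. No GTPase reached 20 UMIs in eosinophil-like cells (5.36% and 8.37%). In the resident macrophage, monocyte and intermediate classes taken as 1 pool there were 4 of 10 (4.59% and 2.65%), or 7 without the small monocyte cluster described above, with a summed level of 641 CPM in WT and 300 in KO. Medians over all 10 GTPases, scarce ones included, were -2.49 in neutrophil-like, -1.99 in cDC2-like, -1.64 in inflammatory monocyte-like and -0.37 in resident macrophage-like cells.

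**Figure D3:**
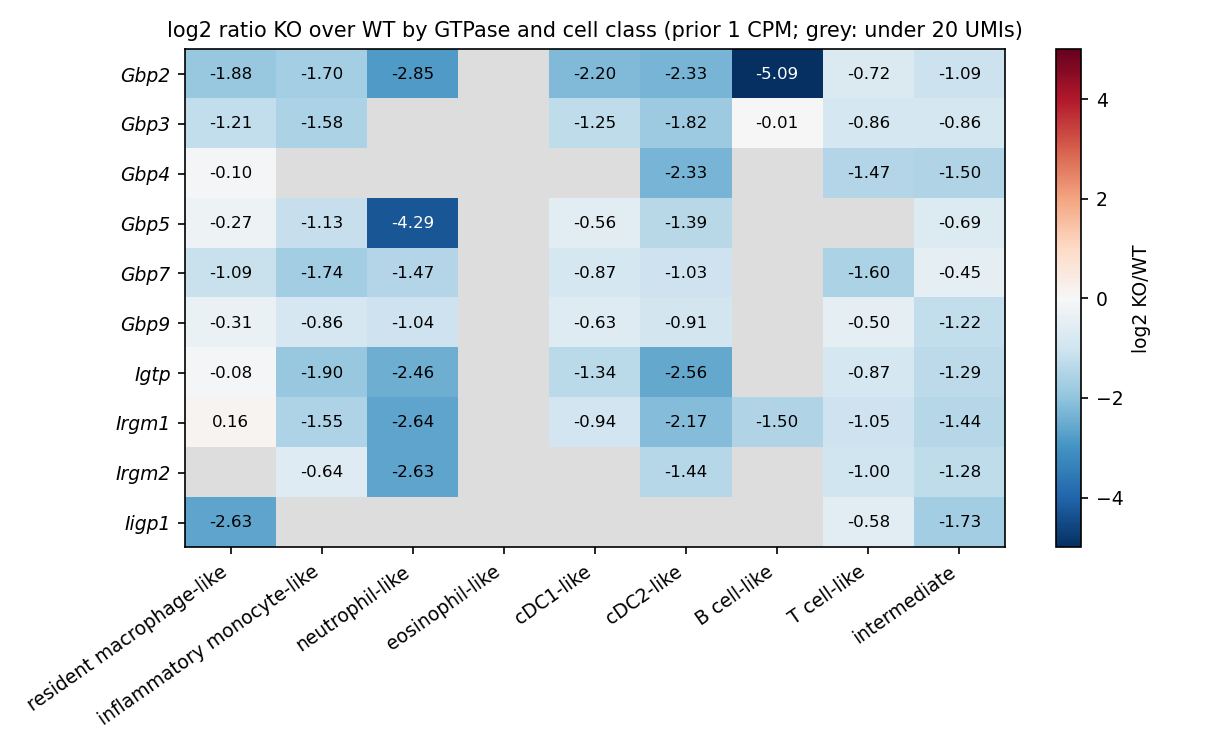
Log2 ratio of KO over WT (prior of 1 CPM) for each GTPase, in rows, and each class with at least 50 cells in both libraries, in columns. Grey cells had under 20 UMIs. Blue means lower in KO, and the single value above 0 is Irgm1 in resident macrophage-like cells (0.16). Gbp2 in B cell-like cells (-5.09) rests on 0 KO UMIs and depends on the prior.

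The pathway upstream was read from lists of other genes. Ifng itself, the ligand, was highest in T cell-like and natural killer cell-like cells. T cell-like cells had 261 UMIs in WT and 28 in KO, or 181 CPM (160 to 204) against 37.8 (25.1 to 54.7), a log2 ratio of -2.26 (-2.88 to -1.69). The natural killer cell-like cells went the other way, with 438 CPM (339 to 558) in 26 WT cells and 1219 (1064 to 1389) in 41 KO cells, too few for a ratio here. Summed over all cells Ifng had 17.7 CPM in WT (15.8 to 19.7) and 11.6 in KO (10.2 to 13.1). The KO library thus held less Ifng in T cell-like and more in natural killer cell-like cells.

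The receptor chain Ifngr1 was close to even over all cells, at 198 CPM (191 to 204) and 188 (183 to 194). Among the classes with a ratio it was higher in KO in eosinophil-like cells, at 56.8 CPM in WT against 149. It was also higher in T cell-like cells, at 644 against 859 CPM. In the others it was lower in KO, such as resident macrophage-like cells, at 173 CPM (150 to 200) against 110 (90 to 133). The second receptor chain, Ifngr2, was higher in KO in T cell-like cells (13.2 against 58.1 CPM) and lower in the others. The kinase gene Jak2 was higher in KO over all cells, at 292 against 146 CPM, with smaller differences within the 9 classes with a ratio, such as 448 against 315 CPM in cDC2-like cells. Irf1, a transcription factor of this response, had 129 against 79.3 CPM over all cells and differed most in neutrophil-like cells, with 535 CPM (440 to 643) against 115 (95 to 139).

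Other targets split. In the list of further interferon-inducible GTPases, 6 of 9 genes with 20 UMIs were at least 2-fold lower over all cells and 0 higher (13.4% and 2.69% of all tested genes, also for the all-cell counts of the lists that follow), with a median of -1.24. Ifi47, a relative of Irgm1, had 57.3 against 18.2 CPM over all cells and 320 (248 to 406) against 34.7 (24.0 to 48.5) in neutrophil-like cells. Among the other targets of interferon gamma, 3 of 7 were lower and 0 higher, with a median of -0.56. The chemokine gene Cxcl9 had 179 CPM (155 to 205) against 13.5 (7.18 to 23.1) in resident macrophage-like cells. Cxcl10, which type I interferon also induces, was instead higher in KO there, with 517 CPM (475 to 561) in WT and 1636 (1556 to 1718) in KO, and lower in KO in neutrophil-like cells, with 1022 (889 to 1168) against 94.9 (76.6 to 116).

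Genes of type I interferon differed from the GTPases in their direction over all cells, where 0 of 7 were at least 2-fold lower and 2 were higher, Ifnb1 and Oasl1, and the median was 0.70. Within classes the direction varied. Their median was below 0 in inflammatory monocyte-like (-0.73), T cell-like (-0.65), eosinophil-like (-0.36, 2 genes), cDC1-like (-0.33) and B cell-like cells (-1.56, 1 gene). It was above 0 in resident macrophage-like (2.20), cDC2-like (0.54), neutrophil-like (0.38) and intermediate cells (0.32). In resident macrophage-like cells 6 of 7 were at least 2-fold higher in KO, where 3.62% of all tested genes were, among them Isg15 with 145 CPM (124 to 170) against 553 (507 to 602), while 4 of the 9 tested GTPases were at least 2-fold lower in the same cells. Ifnb1, the gene of interferon beta, had 0 UMIs in WT resident macrophage-like cells and 266 in KO, or 276 CPM (244 to 311), 102-fold higher when WT is set to 3 counts. In inflammatory monocyte-like cells 3 of the 7 (Ifit1, Ifit2 and Ifit3) were lower and 1 higher, against 8.45% and 7.08% of all tested genes. Among the negative regulators 0 of 4 and among the partner genes of GTPase-driven defence (such as Casp4, Nlrp3 and Atg5) 0 of 10 were at least 2-fold different over all cells, with medians of -0.16 and -0.09.

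**Figure D4:**
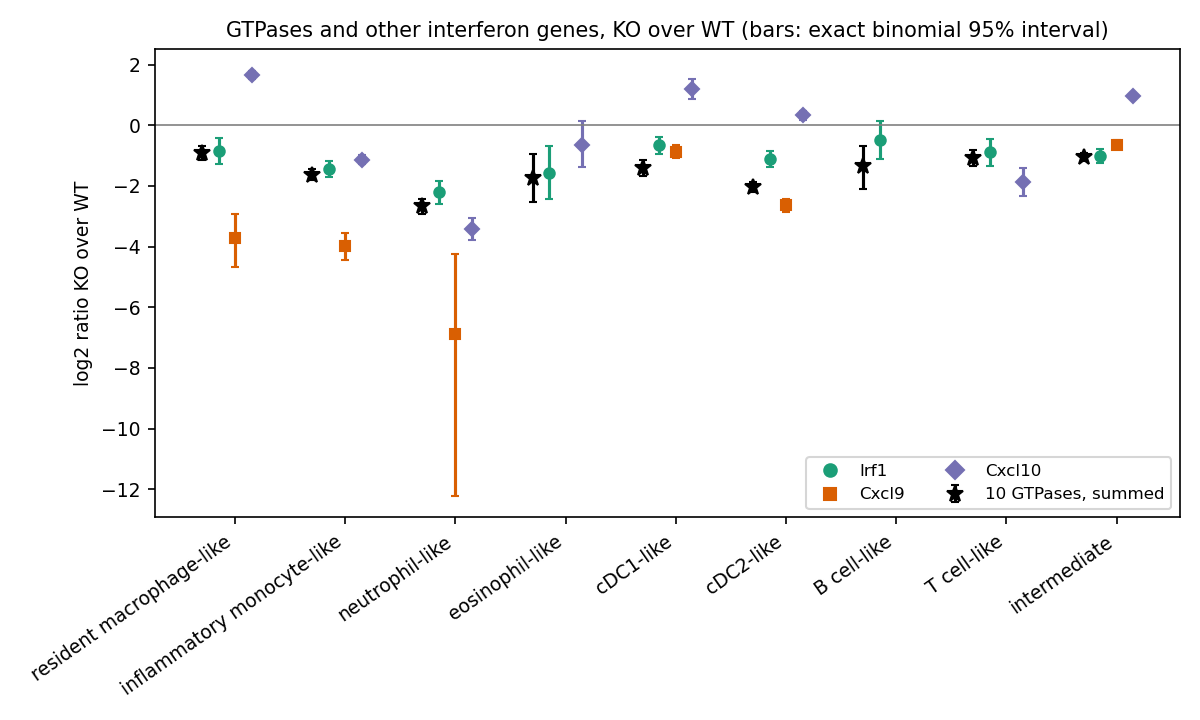
Log2 ratio of KO over WT, with exact binomial 95% intervals, for the summed GTPases, Irf1, Cxcl9 and Cxcl10 in each class with at least 50 cells in both libraries. Genes under 20 UMIs in a class, or at 0 in a library, are not drawn. The points of the GTPases and Irf1 lie below 0 in every class, while Cxcl10 lies at 1.66 in resident macrophage-like and -3.43 in neutrophil-like cells.

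Across the 21 pairs of class and library with at least 50 cells, the GTPase whose log2(CPM + 10) followed the sum most closely was Gbp7, with a Pearson correlation of 0.89, and the least close was Gbp4, with 0.50. Each GTPase is part of that sum. Of the genes in the lists, Ifi47 was closest (0.92), and Irf1 stood at 0.80, while Ifng (0.07) and Jak2 (-0.21) did not follow it. Among 9437 genes outside the lists with at least 200 UMIs, the closest were Agtrap (0.85), Ddx58 (0.84) and Sirt2 (0.83), and then Rtp4, Irf7, Dtx3l, Zbp1, B2m, Rnf213 and Xaf1, from 0.80 to 0.78. Ddx58, Rtp4, Irf7, Zbp1 and Xaf1 are known interferon-induced genes. The points share libraries and UMI totals, so these values describe the 2 libraries only.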

How the data were processed

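The authors deposited unnormalized counts (UMIs of each gene in each barcode) for 1 WT and 1 KO library. Cell Ranger 3.0.2 is named in the headers of the files. The submitters' processing notes list mm10 and Seurat 4, and the annotation is not given in the sources used here. The WT library held 3185 barcodes with 22191774 UMIs and the KO library 3020 with 23384895, and 1 barcode was shared, which the filter removed. The number of cells that the study states is several times larger than this for WT and somewhat larger for KO, and cells beyond those deposited were not analysed here. The filter of the study kept cells with 200 to 6000 genes and at most 15% mitochondrial UMIs. Doublets were not removed, since Scrublet called 1 WT and 9 KO cells. Without the top 3% of its scores is an alternative.

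Counts were scaled to 10000 per cell and log-transformed, and 2000 variable genes, 30 principal components, 15 neighbours, and shared-neighbour weights led to Leiden clusters (resolution 1) of the joined libraries. Python 3.11.15 was used with scipy 1.17.1, leidenalg 0.10.2, scanpy 1.11.5 and scikit-learn 1.9.0. The 10 GTPases, all genes of the pathway lists and mitochondrial genes were kept out of the variable genes. Each cluster was named after the class of which most markers, as a share, were raised (at least 2-fold over other cells with a prior of 10 CPM, in at least 10% of its cells, at least 3 markers). Of 20 clusters 1 stayed unnamed. Names are rebuilt from markers and may differ from those of the study. A cluster whose raised macrophage and monocyte markers differed in number by at most 1 was called intermediate. The rule followed a first look at the clusters, since an earlier version asked for equal numbers and named the WT-rich cluster resident macrophage. Both placements are alternatives.

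Ratios needed 50 cells in each library, and a gene at least 20 UMIs over both. Called lower or higher meant 2-fold with a prior of 1 CPM. For a fold, a count of 0 was set to 3 counts per class and library, which is a convention and not a 95% bound. Intervals are exact at 95%. For shares each cell was thinned to 2000 UMIs. The statistics were run on simulated Poisson counts, the model that the intervals assume. The simulation held no clumping of UMIs in few cells, so spread between cells was not tested. The text names the 10 GTPases, genes of 6 pathway lists on which a result turns, and the 10 genes outside them most like the sum. The members and lists were chosen with earlier results of these data known. Some items of the lists are not reported here.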

Additional observations from a re-analysis of the deposited data

Results flagged for a closer look

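Cxcl10 differed between the libraries in opposite directions in 2 classes. Its log2 ratio (KO over WT) stood at 1.66 (1.52 to 1.80) in the resident macrophage-like class and at -3.43 (-3.80 to -3.07) among neutrophil-like cells, a gap of 5.09 on the log2 scale. With 1 library per genotype this difference was not tested.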

How the results depend on the processing

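No paired analysis was possible because each genotype had 1 library, and for the same reason no replicate could be left out. The summed GTPase level was lower in KO under all 123 values from the alternatives, which form a ratio only where 50 cells per library remained. The intermediate class did not reach that number under several alternatives. Of single-GTPase values, 878 of 891 were below 0 and 11 above. Log2 ratios of the sum that left their counting interval were as follows. Relative to the median of all genes they were -1.17 over all cells, -0.92 in the macrophage and monocyte pool, -0.65 in resident macrophage-like, -1.83 in cDC2-like and -0.91 in intermediate cells. With every deposited barcode all cells gave -1.31. The stricter cell filter gave -1.18 in the pool and -2.39 in neutrophil-like cells. Leiden resolution 0.5 gave -1.87 in cDC2-like cells, and resolution 2 gave -1.41 in inflammatory monocyte-like cells. With 4000 variable genes the pool had -1.23, inflammatory monocyte-like cells -1.43 and cDC2-like cells -1.33. Each library clustered alone gave -1.22 in the pool, -1.43 in inflammatory monocyte-like, -2.22 in neutrophil-like, -1.69 in cDC1-like and -1.70 in cDC2-like cells. Without the top Scrublet scores inflammatory monocyte-like cells had -1.22. The mean over each cell's own CPM gave -0.95 in the pool, -1.39 in inflammatory monocyte-like and -2.38 in neutrophil-like cells.

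Further alternatives were chosen after seeing the data. Naming clusters intermediate only at equal marker counts gave -1.19 in resident macrophage-like cells, and placing intermediate clusters with the monocytes gave -1.15 in inflammatory monocyte-like cells. Without clusters under 10 cells in a library (the plasma cell-like cluster and the small monocyte cluster) the ratio was -1.71 over all cells and -1.23 in the pool, where 7 GTPases were then at least 2-fold lower. Without the 5 highest cells of each library it was -1.32 in inflammatory monocyte-like, -1.77 in cDC2-like and -1.41 in intermediate cells.

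The number of GTPases at least 2-fold lower was 2 in resident macrophage-like and 2 in T cell-like cells both with each library clustered alone and against the all-gene median. Without the top Scrublet scores it was 2 in T cell-like, 1 in B cell-like and 1 in eosinophil-like cells, and with each library clustered alone 1 in B cell-like cells. In cDC1-like cells it was 5 with 4000 variable genes and 5 with the mean over each cell's CPM. Without the 5 highest cells it was 5 in cDC2-like and 0 in B cell-like cells. Thinning made the KO minus WT difference in positive cells -23.3 percentage points in the pool, -37.4 in neutrophil-like and -25.4 in intermediate cells. The Cxcl10 ratio changed sign in inflammatory monocyte-like cells, to 0.03 without the top Scrublet scores and 0.42 with intermediate clusters added, and in cDC1-like cells, to -0.11 with the mean over each cell's CPM. The causes were not tested.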
